A study of Rattus norvegicus with 18 samples.

Results

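The 4 genes described here are Adcyap1, which encodes the neuropeptide PACAP (pituitary adenylate cyclase-activating polypeptide), and the genes of its 3 receptors, Adcyap1r1, Vipr1 and Vipr2. They were measured in rat ovarian follicles, on Affymetrix arrays, by 9 of the 31042 probe sets that are not array controls, and they are 4 of the 14217 genes those probe sets name. The members were chosen by gene symbol, and the set was chosen because Adcyap1 fell between the 2 collection times in untreated animals, so that fall is given as a description with no test. Two-sided tests are given for the comparisons between treatments at 1 time and, for the receptor Adcyap1r1, between times under each drug.

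PACAP belongs to the family of peptides that includes VIP, secretin and glucagon. Its receptor PAC1, the product of Adcyap1r1, binds PACAP far better than VIP, whereas VPAC1 and VPAC2, the products of Vipr1 and Vipr2, bind both peptides, and all of these receptors signal mainly through Gs and cyclic AMP. In the ovary the gonadotropin surge is known to induce PACAP in preovulatory follicles, in a manner that depends on the progesterone receptor, and the peptide is known to act on granulosa cells.

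Follicles came from cycling Crl:CD(SD) rats and were cut out of frozen ovary sections with a laser, 15 in each phase, so each array held a mixture of the follicle's cell types. The control groups were untreated: control PeF, peri-ovulatory follicles collected at 22:00 on the day of proestrus, and control PoF, post-ovulatory follicles collected the next morning, at 10:00 of estrus. Animals given 1 oral dose of 4 mg/kg indomethacin (IM), an inhibitor of cyclooxygenases, at 16:00 of proestrus gave IM PeF and, at estrus, unruptured follicles (IM UF). Animals given 100 mg/kg of RU486 (RU), which blocks both the progesterone receptor and the glucocorticoid receptor, at 10:00 of proestrus gave RU PeF and RU UF. Each of the 6 groups had 3 samples. Samples are not tied to animals in the labels, so each p-value is set against the variation from sample to sample, which may be technical in part. At estrus the control follicles had ruptured and the treated ones had not, so treatment and rupture cannot be told apart there.

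The gene of the receptor with the clearest response to a drug, Adcyap1r1, is shown with the 250 bases before its annotated start, from the RefSeq table of assembly GRCr8. The bases lie at chr4:85923921-85924170 on the plus strand. Capitals mark the matches, on either strand, to motifs of factors that the drugs or the peptide could touch.

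Adcyap1r1 promoter: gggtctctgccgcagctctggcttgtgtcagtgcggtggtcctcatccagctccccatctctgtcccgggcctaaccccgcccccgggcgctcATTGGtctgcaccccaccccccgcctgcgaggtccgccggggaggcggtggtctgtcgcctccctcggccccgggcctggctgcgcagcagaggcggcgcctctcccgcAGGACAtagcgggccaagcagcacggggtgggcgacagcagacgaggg

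The motifs searched were the cyclic AMP response element TGACGTCA, its core TGACG, the short element TGTNCT that progesterone and glucocorticoid receptors share, and CCAAT. In the Adcyap1r1 window AGGACA, a match to TGTNCT on the minus strand, lies 48 to 43 bases before the start, and ATTGG, the reverse of CCAAT, lies 157 to 153 bases before it. Windows of the same length held TGTNCT in 45.5% and CCAAT in 34% of 33469 rat promoters, so both matches are common. TGACG occurred in 18.2% and TGACGTCA in 1.59% of the promoters, and neither is in this window. The RefSeq window of Adcyap1, on the minus strand of chromosome 9 at bases 120556474 to 120556723, holds none of the 4 motifs. It lies inside the annotated span of the gene (bases 120550236 to 120569096) and is not printed. The window of Vipr1 (gene on chromosome 8) holds 1 TGACG and 1 CCAAT match, and that of Vipr2 (chromosome 6) holds none. These windows too lie inside the annotated spans of their genes, at bases 130187511 to 130187760 for Vipr1 and 143144273 to 143144522 for Vipr2. A match is a string of letters, not a bound site.

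The array signals are linear, with a floor of 1, and no source used here states how they were scaled between arrays. The median signal of an array ran from 4.40, on control PeF replicate 3, to 27.4. Below, "signal" is the deposited value, and "log2 level" is the log2 of the quantile-normalized signal plus 2.80. An array's background is the highest of 27 control probe sets for bacterial transcripts, and was 5.10 to 9.85. Depending on the array, 45.7% to 75.3% of probe sets exceeded it. Granulosa cell markers were detected: Inha, an inhibin subunit, and Foxl2, a transcription factor, were above background on all 18 arrays. Of 5 oocyte markers, Bmp15 was at or below background on every array, Zp1 exceeded it on 2 arrays and Zp3 on 6, while Gdf9 did so on 12 and Zp2 on 14, and the mean level of all 5 was higher in RU PeF than in control PeF (Gdf9 5.996 against 3.769, Zp2 5.23 against 4.53 on the log2 scale).

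Adcyap1 gave signals far above background at 22:00 of proestrus in every treatment group. At estrus its signals were far lower, from below background to 85.73, against a background of 9.10, on control PoF replicate 1. Probe set 1368892_at gave signals of 5244.74, 7181.01 and 2370.58 in control PeF replicates 1 to 3. It gave 10092.79, 2291.38 and 6985.15 in IM PeF. RU PeF had the tightest values, 8588.94, 8287.38 and 7367.15. All 9 values were far above the background of their arrays.

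At estrus the same probe set gave 85.73, 16.85 and 37.69 in control PoF. IM UF had 31.95, 9.20 and 54.13. RU UF had 20.38, 10.16 and 3.33, and the last of these, in replicate 3, was the only Adcyap1 value of this probe set below its array's background. The 9 proestrus and 9 estrus values did not overlap.

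The second Adcyap1 probe set, 1394908_at, gave the same separation. Its signals were 2497.72, 3909.62 and 1256.01 in control PeF. Indomethacin gave 8041.53, 948.67 and 4781.12 at this time, and RU486 gave 5876.59, 5627.06 and 5127.90. At estrus they were 44.42, 9.77 and 12.31 in control PoF, 13.84, 3.80 and 10.14 after indomethacin (IM UF), and 15.69, 11.22 and 23.19 after RU486 (RU UF). One of these 18, IM UF replicate 2, was below background.

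**Figure D1:**
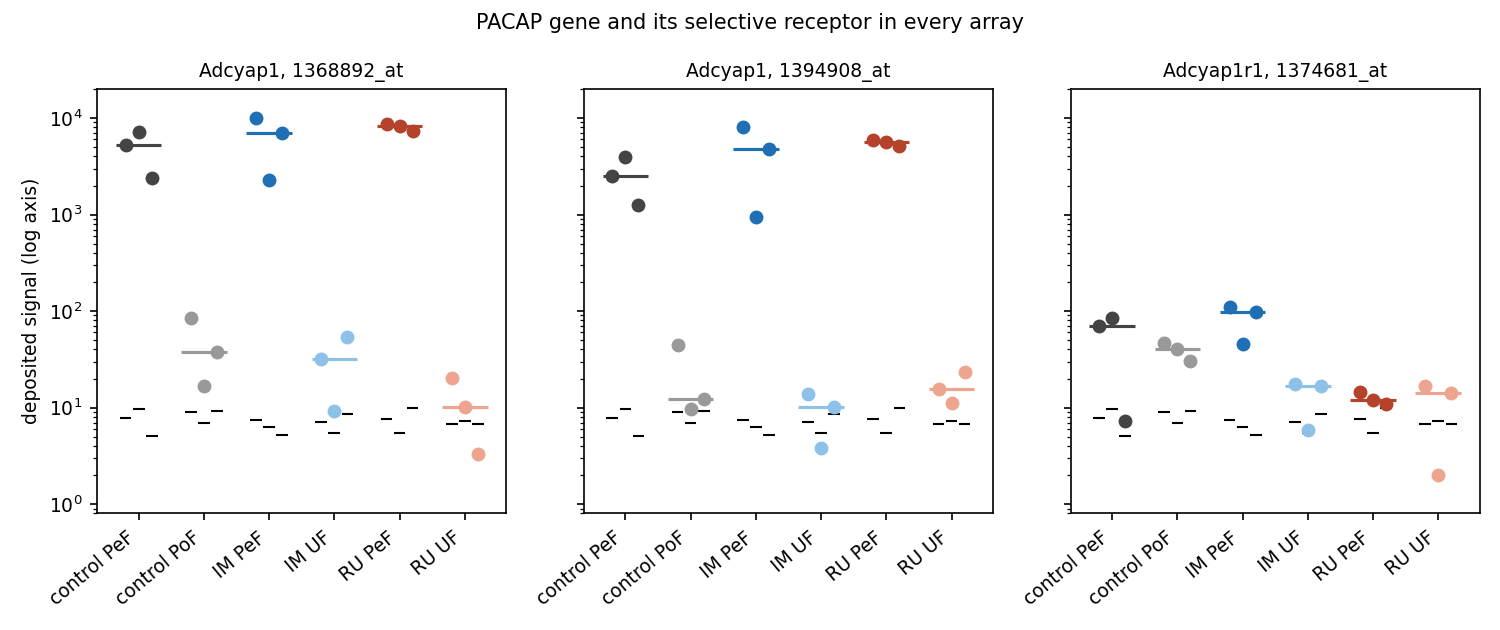
Deposited signals (log axis) of both Adcyap1 probe sets and of the Adcyap1r1 probe set that was tested, for the 18 arrays in 6 groups. Points are arrays in replicate order, coloured lines are group medians and short black lines are the background of each array. Adcyap1 is at 948.67 or more on every proestrus array and at 85.73 or less on every estrus array. Adcyap1r1 stays between 11.01 and 14.54 in RU PeF.

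The log2 level of 1368892_at was 12.69 ± 0.235 (SD, n = 3) in control PeF and 4.89 ± 0.987 in control PoF. The difference was -7.80 ± 0.462 (SE), 223-fold on the log2 scale with the added constant, and the second probe set gave -7.93 ± 0.430, or 243-fold. Over the same interval the 2 probe sets were lower by 201-fold and 325-fold in the indomethacin groups, and by 596-fold and 254-fold in the RU486 groups. Of all probe sets tested, 39.6% passed the threshold between control PoF and control PeF, 33.3% between IM UF and IM PeF, and 38.8% between RU UF and RU PeF, so many transcripts differed over this interval. Fewer cells that express the gene and less RNA per cell cannot be told apart in these samples.

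The summed signal of 12 genes used as markers of neurons and nerve fibres, which also make PACAP, was lower at estrus. It was, after normalization, 2033 to 2713 in control PeF and 404 to 731 in control PoF. With indomethacin it was 1677 to 2473 at proestrus and 438 to 650 at estrus, and with RU486 it was 1015 to 1426 and 357 to 502. Snap25, a vesicle fusion protein that granulosa cells are also known to express, had a mean log2 level of 10.71 in control PeF, 9.34 in RU PeF and 7.94 in control PoF. Tubb3 was next highest of the 12 in control PeF, at 8.32. The sum therefore follows mainly Snap25 and is not a measure of nerve content. Nefl and Nefm, light and medium neurofilament chains, had 6.12 and 6.36 in control PeF and 1.96 and 2.44 in control PoF. The mean level of 11 of the 12 was lower in control PoF, some of them by little (Syt1, 3.81 and 3.38), and that of Uchl1, a ubiquitin hydrolase of neurons, was higher (4.37 and 5.47). The defining neuroendocrine marker Chga exceeded background on 0 of 18 arrays, Dbh on 2 and Stmn2 on 3. In RU PeF the marker sum was below that of every control PeF array. Only 7 of the 12 markers had a lower mean there, Snap25 among them, and Nefl (6.52), Nefm (6.76) and Uchl1 (6.52) were higher. The log2 signal of the Gapdh 3' control probe set minus that of its 5' probe set, which is larger where RNA or its copies are shorter, was 2.95 to 4.09 in control PeF and 2.07 to 2.30 in control PoF. It was 2.59 to 3.60 and 2.18 to 3.83 in the indomethacin groups, and 2.65 to 2.94 and 2.86 to 3.26 in the RU486 groups. The parts of nerve fibres and of RNA quality in the Adcyap1 signal were not tested.

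Neither drug gave a detectable difference in Adcyap1 before rupture. The log2 level of 1368892_at was 12.65 ± 0.590 (SD, n = 3) in IM PeF and 12.88 ± 0.039 in RU PeF, against 12.69 in control PeF. The difference from control was -0.04 (95% interval -1.01 to 0.94, limma adjusted p = 0.983) for indomethacin and 0.20 (-0.77 to 1.17, limma adjusted p = 0.835) for RU486. With 1394908_at the differences were 0.06 (limma adjusted p = 0.969) and 0.41 (limma adjusted p = 0.595). RU PeF minus IM PeF gave 0.23 (-0.74 to 1.20, limma adjusted p = 0.870). The intervals of 1368892_at reach close to 1 on either side, and that of 1394908_at for RU PeF minus control PeF reaches 1.32. An interval does not give the smallest change that the adjusted test could detect, which may be larger. At estrus a difference of -1.34 in 1368892_at did not pass (RU UF minus IM UF, limma adjusted p = 0.0957).

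In this comparison 0% of all 18155 probe sets passed for indomethacin in limma at an adjusted 0.05, against 2074 at an unadjusted p under 0.05, and weighting the arrays by quality gave 2349. For RU486, 7.42% passed against control PeF and 5.23% against IM PeF. RU486 was given earlier on the same day than indomethacin and at another dose, so the comparison of the drugs joins compound, dose and time of dosing.

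At estrus the 2 Adcyap1 probe sets gave different pictures of RU UF. For 1368892_at the log2 level was 3.67 ± 1.03 in RU UF (SD, n = 3), 5.0 ± 0.539 in IM UF and 4.89 in control PoF. The difference RU UF minus control PoF was -1.22 (-2.19 to -0.25, limma adjusted p = 0.123), and RU UF minus IM UF was -1.34 (-2.31 to -0.37, limma adjusted p = 0.0957). For 1394908_at the same differences were 0.35 (-0.56 to 1.25, limma adjusted p = 0.721) and 0.71 (-0.19 to 1.62, limma adjusted p = 0.386). Indomethacin gave 0.12 (limma adjusted p = 1) and -0.36 (limma adjusted p = 0.974) against control PoF. None of the 6 differences passed.

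The log2 difference between the 2 Adcyap1 probe sets was 0.35, -0.12 and -2.22 in RU UF replicates 1 to 3, and 0.35 to 1.97 on the other 15 arrays. Without RU UF replicate 1 the 1368892_at difference from control PoF was -1.71 (limma adjusted p = 0.0376), without control PoF replicate 2 it was -1.67 (limma adjusted p = 0.0477), and without RU UF replicate 3 or control PoF replicate 1 it was -0.68 or -0.69. The differences from IM UF without RU UF replicates 1 and 3 were -1.83 (limma adjusted p = 0.0316) and -0.80. With all arrays kept and weighted by quality, the differences passed too, at -1.21 (limma adjusted p = 0.0408) and -1.56 (limma adjusted p = 0.0198), while 1394908_at stayed above control PoF at 0.42 (limma adjusted p = 0.404). At these levels, near background, no direction is given for Adcyap1 under RU486 at estrus.

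Across all groups the order of the 1368892_at means ran, from the top, RU PeF, control PeF, IM PeF, IM UF, control PoF, RU UF. The only neighbours whose values did not overlap were IM PeF and IM UF.

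The PAC1 receptor gene Adcyap1r1 was lower under RU486 than in control follicles at 22:00 of proestrus, and was highest after indomethacin. Of its 4 probe sets only 1374681_at passed the filter on low signals, so this result rests on 1 probe set. Its signals were 70.59, 85.47 and 7.30 in control PeF, where the last value comes from the dimmest array. They were 111.53, 45.25 and 97.08 in IM PeF. They were 14.54, 12.06 and 11.01 in RU PeF, all above background.

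After normalization, which raises the values of a dim array, the control PeF log2 levels were 6.38, 6.15 and 5.57 and those of RU PeF 4.22, 3.93 and 3.70, with no overlap. The means were 6.03 ± 0.419 (SD, n = 3) and 3.95 ± 0.264. RU PeF minus control PeF was -2.08 ± 0.407 (SE, 95% interval -2.94 to -1.23), a 4.24-fold lower level, with limma adjusted p = 0.00465, and 7.42% of all probe sets passed in this comparison (45.8% of them higher, 75.1% with median scaling and 63.6% with signals as deposited). Leaving out single arrays kept it between -2.34 and -1.91, with limma adjusted p up to 0.0278. With signals as deposited, on which the groups overlapped, the difference was -1.40 and the limma adjusted p = 0.500. RU PeF was also 6.12-fold lower than IM PeF (-2.61 ± 0.407, limma adjusted p = 0.000658), where the deposited signals gave -2.42 (limma adjusted p = 0.0606).

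The IM PeF level of 6.56 ± 0.144 did not differ detectably from control PeF (0.53, -0.33 to 1.38, limma adjusted p = 0.603), although the 3 values of each group did not overlap. The levels of markers of other cell types also differed between control PeF and RU PeF. The summed normalized signal of 7 smooth muscle and pericyte markers was 447 to 457 in control PeF, 314 to 383 in IM PeF and 204 to 225 in RU PeF. The mean was lower in RU PeF for 5 of the 7, among them Tagln (5.47 against 7.27) and Myh11 (4.24 against 6.36), and higher for the pericyte markers Rgs5 (3.90 against 3.42) and Pdgfrb (5.43 against 4.84). In control PoF the sum of these 7 markers was 614 to 770.

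Endothelial markers were lower in RU PeF, with a sum over 5 genes of 604 to 761 against 888 to 1001 in control PeF and a lower mean for all 5. Their sum was also lower in control PoF, at 638 to 692, and in IM PeF, at 660 to 804. The sum of 5 genes listed as theca markers was higher in RU PeF, at 18627 to 21409 against 13603 to 15845. It rests mainly on Hsd3b1 (mean log2 level 13.42 against 13.23) and Star (12.99 against 12.09), which were higher, as was Lhcgr. Cyp17a1 (6.55 against 6.79) and Insl3 (5.07 against 5.59) were lower, so no amount of theca is read from the sum. The sum of neuron markers was lower in RU PeF, as given above. The Gapdh 3' minus 5' value was lower in RU PeF than in control PeF without overlap, and it overlapped between RU PeF and IM PeF. The parts of these cells and of RNA quality in the Adcyap1r1 result were not tested.

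**Figure D2:**
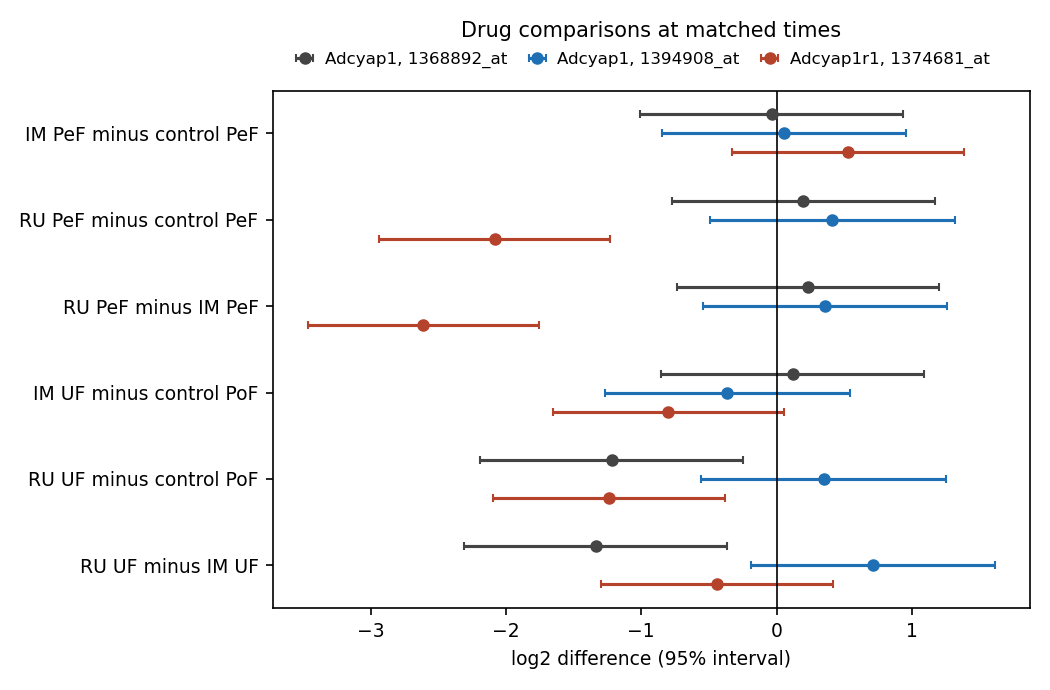
Log2 differences with 95% intervals (horizontal axis) between treatments at the same time, for both Adcyap1 probe sets and for Adcyap1r1, with the zero line drawn. The Adcyap1r1 intervals for RU PeF end at -1.23 against control PeF and -1.76 against IM PeF, while those of Adcyap1 at proestrus all include 0.

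At estrus Adcyap1r1 signals were 47.13, 40.05 and 30.22 in control PoF, 17.69, 5.92 and 16.56 in IM UF, and 16.74, 2 and 14.24 in RU UF. Each treated group's normalized levels lay below all 3 control values. RU UF replicate 2 was below background. The log2 levels were 4.87 ± 0.331 (SD, n = 3), 4.07 ± 0.115 and 3.63 ± 1.10. Neither difference passed, at -0.80 (-1.65 to 0.06, limma adjusted p = 0.759) for IM UF, where 0.033% of all probe sets passed, and -1.24 (-2.09 to -0.38, limma adjusted p = 0.0697) for RU UF, where 8.69% passed. The RU UF difference passed without the 3 dimmest arrays (-1.28, limma adjusted p = 0.0421), with array quality weights (-1.38, limma adjusted p = 0.00791) and without RU UF replicate 1 (-1.61, limma adjusted p = 0.0324). It was -0.61 without replicate 2. RU UF minus IM UF was -0.44 (-1.30 to 0.41, limma adjusted p = 0.613), and 6.95% of all probe sets passed there.

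Over time Adcyap1r1 fell in the indomethacin groups. IM UF minus IM PeF was -2.49 ± 0.407 (SE), or 5.62-fold, with limma adjusted p = 0.00014 and no overlap. RU UF minus RU PeF was -0.32 (-1.17 to 0.54, limma adjusted p = 0.574), and its sign turned to 0.31 without RU UF replicate 2. In untreated follicles control PoF was 2.24-fold below control PeF (-1.16), with no overlap, and this value is descriptive. With signals as deposited it was 0.04. The difference between the indomethacin effects at the 2 times was -1.33 (limma adjusted p = 0.532), and that between the RU486 effects was 0.85 (limma adjusted p = 0.455). In these contrasts 0% and 4.02% of all probe sets passed, with 1641 probe sets at an unadjusted p under 0.05 for indomethacin.

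The order of the Adcyap1r1 means ran, from the top, IM PeF, control PeF, control PoF, IM UF, RU PeF, RU UF. The first 4 were separated from each other without overlap, and IM UF, RU PeF and RU UF overlapped.

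The other 3 Adcyap1r1 probe sets were near background. 1368729_a_at exceeded it on 8 of 18 arrays, including all 3 of IM PeF, where it gave 19.35, 14.81 and 12.34. It gave 11.45, 5.99 and 1.00 in control PeF and 8.19, 1.47 and 6.83 in RU PeF. The direction RU PeF below IM PeF is therefore shared with 1374681_at, while control PeF and RU PeF overlapped. 1387302_at exceeded background on 2 arrays and 1368730_a_at on 0. Across 18 arrays their signals did not exceed 12.41 and 5.86.

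The shared receptors were at the edge of detection, and only control PoF had all 3 arrays above background for a probe set of each. The signals below are as deposited, and the control PoF arrays had the highest medians of the 18, at 24.2 to 27.4. Vipr2, measured by 1387177_at, gave 18.10, 26.17 and 18.29 in control PoF, all above background, and 2.38, 6.79 and 1.00 in control PeF, none above it. With indomethacin it gave 10.41, 1.83 and 3.63 at proestrus and 28.85, 3.44 and 12.47 at estrus. With RU486 it gave 2.82, 6.33 and 10.65, then 2.10, 7.53 and 5.97. The control PoF signals thus exceeded those of every RU486 array.

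Vipr1, measured by 1383695_at, had the same arrangement in controls, with 25.09, 15.89 and 18.71 in control PoF and 6.14, 1.36 and 1.00 in control PeF. After indomethacin its signals were 4.68, 3.20 and 6.05 at proestrus and 11.94, 8.37 and 7.52 at estrus. After RU486 they were 6.29, 4.16 and 8.36, then 10.69, 1.11 and 19.91. Between control groups the values of Vipr1 and of Vipr2 did not overlap, and the levels in control PoF were at least 1.18-fold and 1.25-fold the background-limited levels in control PeF. For such a bound the dim group is held at the higher of its own value and the array's background. On control PeF replicate 3 the normalized background was 23.7, above every normalized control PoF value of either gene. That array could not show such a level, so the lack of overlap rests on control PeF replicates 1 and 2. The second Vipr1 probe set, 1387561_at, was at or below background on all 18 arrays. The 3 Vipr probe sets, like 3 of those of Adcyap1r1, failed the filter on low signals, so 3 of 9 member probe sets were tested, and no test is given for Vipr1 or Vipr2.

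**Figure D3:**
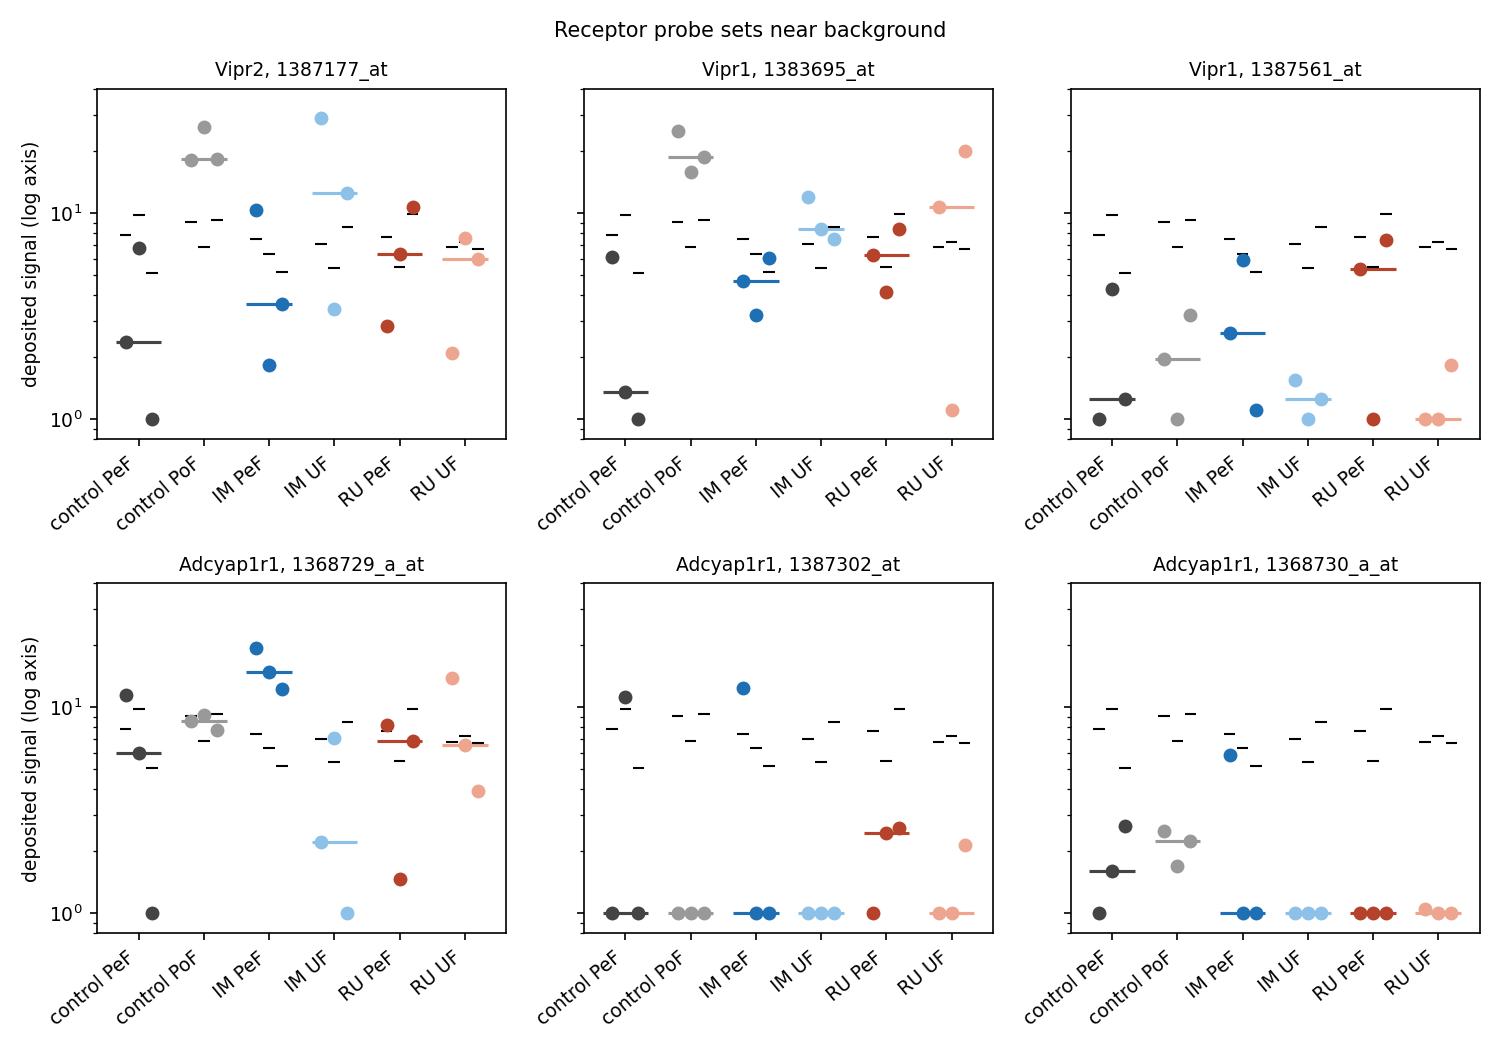
Deposited signals (log axis) of the 6 receptor probe sets that failed the filter, by array in 6 groups. Points are arrays, coloured lines group medians and short black lines each array's background. Vipr2 and the first Vipr1 probe set lie above background in all 3 control PoF arrays, at 15.89 or more, and below it in all 3 control PeF arrays.

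Genes of PACAP synthesis, breakdown and signalling changed over time, as did many other genes. The share called was near that of all genes in controls and above it under either drug. Whether these shares differ from that of all genes was not tested. The list held 67 genes, 64 of them on the array and 44 tested, each by its brightest probe set. Between control PeF and control PoF 7 rose and 12 fell (43.2%), against 44.1% of all 10391 genes called. Their median difference was -0.14, against 0.08 over all genes. In the indomethacin groups 8 rose and 13 fell (47.7%, against 37.8% of all genes). In the RU486 groups 8 rose and 16 fell (54.5%, against 42.7% of all genes). Among related peptides only Sct, secretin, was measurable, and it fell from RU PeF to RU UF (-1.29, limma adjusted p = 0.0319). Vip did not pass the filter.

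Of 7 tested genes of peptide processing 5 fell and 1 rose between control PeF and control PoF, and Pcsk4 did not pass (1.24, limma adjusted p = 0.0501). In this comparison 44.1% of all genes were called, and whether this small subgroup differs from that share was not tested. The listed convertase Pcsk1 was not on the array, and Pcsk2 and the breakdown enzyme Dpp4 did not pass the filter. Processing of PACAP itself was not measured. The convertase Pcsk5, which cuts peptide precursors, fell by 3.18 on the log2 scale, from 10.91 ± 0.209 to 7.73 ± 0.138 (SD, n = 3). Pcsk6, another convertase, fell by 2.20 and Pam, which amidates the ends of peptides such as PACAP, fell by 0.79. Cpe, carboxypeptidase E, which trims basic residues from cut peptides, rose by 2.17 (limma adjusted p = 0.000381). Pcsk7 and Furin fell by 0.67 and 0.61. With signals as deposited the falls of Pcsk5 (-1.74, limma adjusted p = 0.0623) and Pcsk6 (-0.86, limma adjusted p = 0.272) did not pass. Pam (0.66), Pcsk7 (0.75) and Furin (0.83) turned, and Pcsk4 passed as a rise (2.02, limma adjusted p = 0.0109). Median scaling kept the falls of Pcsk5 and Pcsk6. It lost those of Pam, Pcsk7 and Furin (limma adjusted p = 0.102, 0.425 and 0.585), and Pcsk4 passed there (1.22, limma adjusted p = 0.0479). Of 3 tested breakdown enzymes, Mme (neprilysin) and Ece1 (endothelin-converting enzyme) rose by 2.04 and 1.59, and Ace did not pass (0.71, limma adjusted p = 0.255). Pcsk5, Pcsk6, Pam, Mme and Ece1 had limma adjusted p values of 0.000159 or less. The same 5 genes changed in the same direction in the indomethacin and the RU486 groups, where the Mme rise under RU486 was 0.70 (limma adjusted p = 0.0362, 0.0514 with the replicate block). Cpe rose in the indomethacin groups (1.86, limma adjusted p = 0.0016), and its RU486 difference was -0.09 (limma adjusted p = 0.889), while Pcsk4 rose under RU486 (1.57, limma adjusted p = 0.0155).

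The transducers split. Crem, a cyclic AMP-responsive factor, fell by 2.80, from 10.58 ± 0.614 to 7.78 ± 0.084 in controls. Crtc2, a co-activator of CREB, fell by 0.96. The adenylyl cyclase Adcy3 rose by 1.97, and the catalytic subunit Prkaca and regulatory subunit Prkar2b of protein kinase A rose by 1.45 and 0.87. Gnas, which encodes the Gs alpha subunit, fell by 0.66, the kinase Grk2 by 0.85, Prkar2a by 0.51, Plcb1 by 1.01 and Rgs2 by 0.95, and Plcb3 rose by 1.18. With signals as deposited the falls of Crtc2, Gnas, Grk2, Prkar2a, Plcb1 and Rgs2 reversed. That scaling moved the median of all probe sets by 1.28 and the share of calls that were higher from 53.2% to 97.5%. Scaling to the median gave 0.26 and 74.6%.

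Crem, Crtc2, Gnas, Grk2, Prkar2a and Rgs2 also fell, and Adcy3, Prkaca and Prkar2b also rose, from PeF to UF under either drug. In the indomethacin groups Ramp1 rose by 1.25 while Gna11, a Gq family alpha subunit, Crtc3 and Adcy6 fell by 1.00, 0.87 and 0.48. In the RU486 groups Plcb4 rose by 1.95 and Grk6 by 0.67, and Crtc3 fell by 0.92. Plcb1 fell there by 0.69 (limma adjusted p = 0.0489, 0.0516 with the replicate block).

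Under RU486 at proestrus 3 of the 44 genes passed (6.82%), against 8.53% of all genes. Cpe was lower, at signals of 62.06 to 72.23 in RU PeF against 26.78, on the dimmest array, to 199.62 in control PeF. The difference was -1.51 ± 0.401 (SE, limma adjusted p = 0.0294). Mme rose by 1.37 (limma adjusted p = 0.003) and Rgs2, which restrains G protein signalling, by 1.12 (limma adjusted p = 0.0422). Against IM PeF the same 3 genes passed in the same direction (-1.72, 1.91 and 1.19), where 6.02% of all genes passed. Both comparisons share RU PeF. The Cpe and Rgs2 calls were lost when any of several single arrays was left out, with limma adjusted p up to 0.108 and 0.116.

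At estrus under RU486 3 genes rose and 3 fell against control PoF (13.6% of the list), where 9.97% of all genes passed. Cpe was the largest difference, with signals of 28.68 to 83.91 in RU UF and 1175.98 to 1581.60 in control PoF, or -3.76 ± 0.401 (SE) on the log2 scale. Pam fell by 0.99 and Prkar2a by 0.75, while Prkar2b rose by 1.40, Adcy6 by 0.89 and Grk6 by 0.75. Grk6 turned to -0.0034 with signals as deposited. Against IM UF 4 rose and 4 fell (18.2% of the list), where 7.86% of all genes passed. Cpe (-3.67), Pam (-0.50), Prkar2a (-0.61), Prkar2b (1.22) and Adcy6 (0.87) kept the directions they had against control PoF, and Rgs2 (2.05), Crtc2 (0.51, limma adjusted p = 0.0632 with the replicate block) and the receptor accessory protein Ramp1 (-1.41) also passed.

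Under indomethacin 0 of the 44 genes passed in limma at either time, with 5 at proestrus and 4 at estrus at an unadjusted p under 0.05. With array quality weights 4 and 2 passed. Over all genes 0% and 0.0481% passed. The difference of its effects between times had 0 of 44 (5 unadjusted, 0% of all genes), and that of RU486 had 4 lower and 0 higher (9.09%, against 4.44% of all genes).

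**Figure D4:**
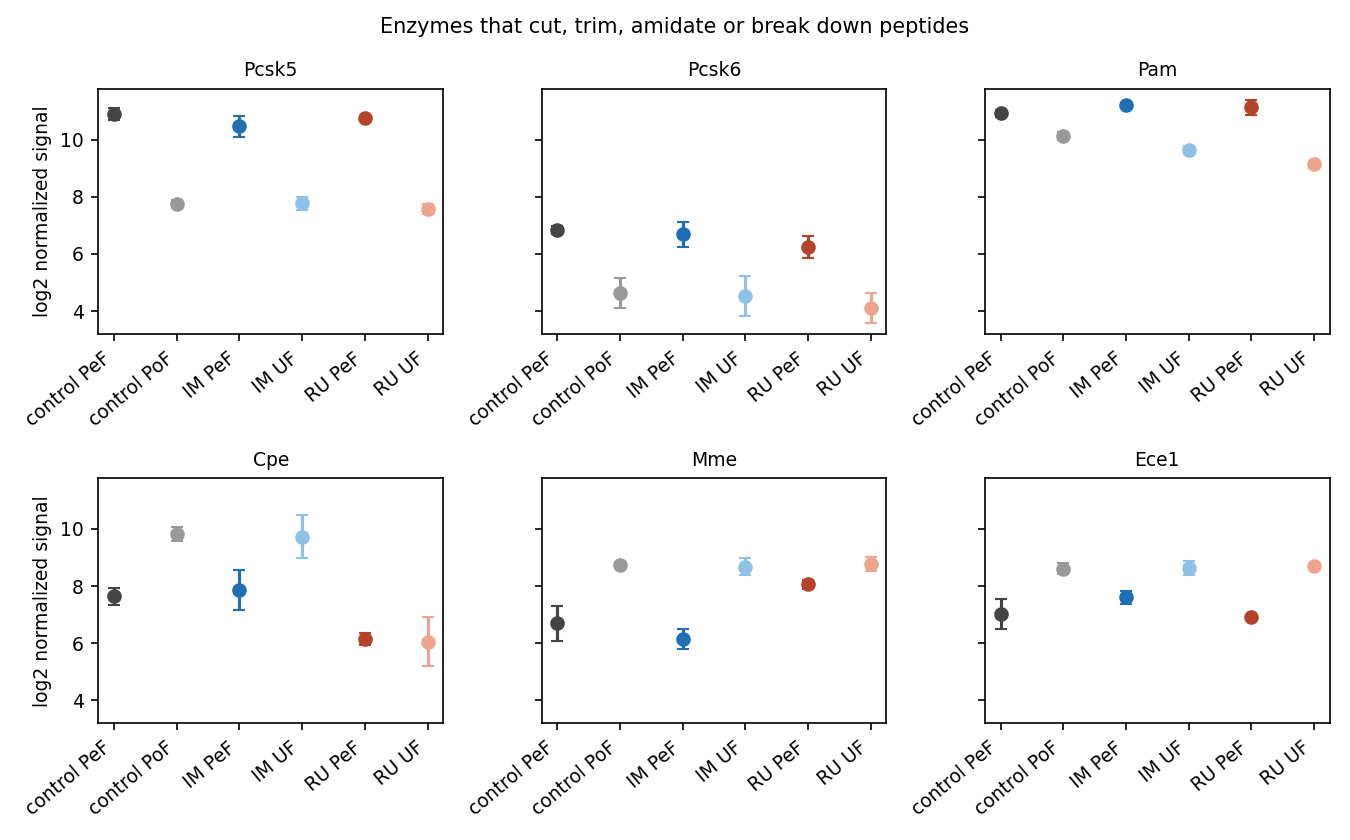
Mean log2 level (vertical axis) with SD over 3 arrays for 6 genes of peptide processing and breakdown in the 6 groups. Pcsk5, Pcsk6 and Pam are lower at estrus in every treatment group, and Cpe rises in the control and indomethacin groups but stays near 6 in both RU486 groups.

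The transcripts whose 18 log2 levels followed Adcyap1 most closely were Bzw1 (Pearson r = 0.990), Riok3 (0.985), Vkorc1l1 (0.985), Scg2 (0.984) and Gclm (0.984). Scg2 encodes secretogranin II, a protein of secretory granules, and Gclm a subunit of glutamate-cysteine ligase. Since the arrays fell into 2 separate sets by time, r here describes that split, and 431 of 10390 genes had r above 0.9. Scg2 had mean log2 levels of 9.58, 9.58 and 9.49 in control, IM and RU PeF and 4.44, 4.77 and 4.17 at estrus. Bzw1 changed far less, from 9.95 to 8.44 in controls. With arrays scaled to the median Gclm ranked 1 and Bzw1 28.

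Adcyap1r1 had fewer close companions. Pgap2 (0.937), F3 (0.931), which encodes tissue factor, and Tbk1 (0.924) led, and 6 genes in all exceeded 0.9. F3 had log2 levels of 9.46 in control PeF, 9.82 in IM PeF and 5.70 in RU PeF, the same arrangement as the receptor. Because F3 was picked by its correlation over these same arrays, the shared arrangement is not separate evidence. For Vipr2 the leading genes were Mrpl15 (0.881), Arpc1a (0.869) and Ubac1 (0.853), and after median scaling their values were 0.682, 0.741 and 0.699.

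**Figure D5:**
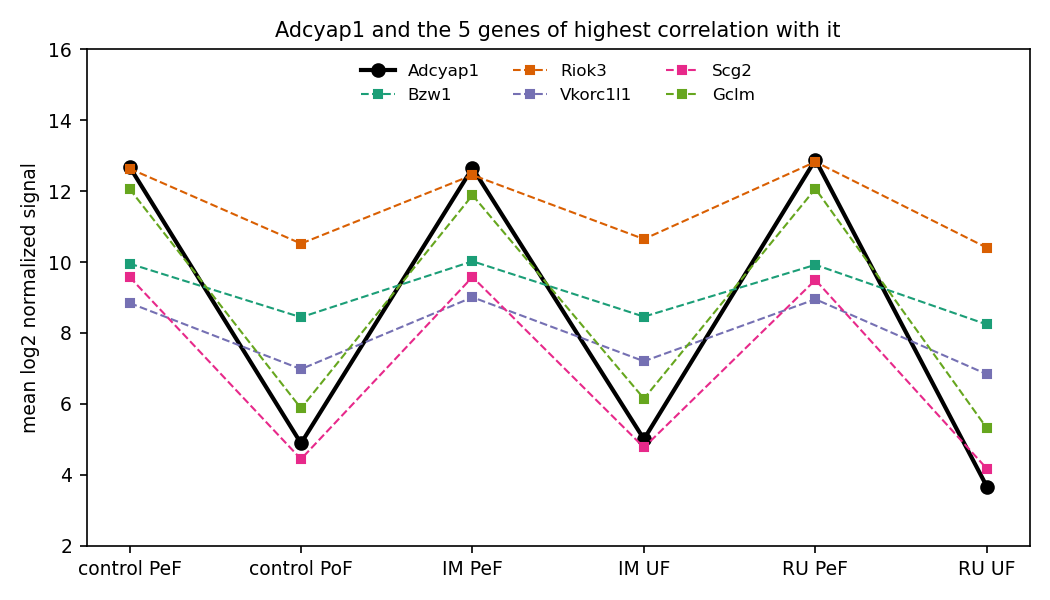
Mean log2 level (vertical axis) of Adcyap1 (1368892_at) and of the 5 genes with the highest Pearson r with it over 18 arrays, in the 6 groups. All 6 are lower at estrus in each treatment group, and the spans differ, from 12.69 to 4.89 for Adcyap1 and from 9.95 to 8.44 for Bzw1 in controls.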

How the data were processed

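The deposited values are microarray intensity, linear signals of 31099 probe sets on 18 arrays, per the file headers and values. The submitters' processing notes name MAS5; its version and its scaling target are not stated in any source used here. All 57 control probe sets were left out. Arrays were quantile normalized, and log2 of the signal plus 2.80, the 20th percentile of all values, was used. A probe set was tested if it exceeded the median of its array on 3 or more arrays (18155 did). The tests used limma (version 3.58.1, R 4.3.3), fitting a mean for each group, a trended empirical Bayes variance and Benjamini-Hochberg adjustment at 0.05 over all tested probe sets within each of 11 comparisons. With 3 samples on each side, an exact permutation p is never below 0.1. The script was tested on simulated data. The number of arrays limits precision.

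Of 31042 probe sets, 20826 had 1 gene symbol in the platform annotation, 436 several and 9780 none. Only the first were named. The background differs from the one first planned, which left no suitable control. It uses 27 poly-A controls (Dap, Lys, Phe, Thr and Trpn). No label or header says whether those transcripts were spiked; if they were, it is set too high.

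The members, gene lists, tests and settings were chosen with earlier results of these data known. Named were every member probe set, the called pathway genes (up to 3 per subgroup and comparison by smallest p), and the genes most correlated with a member. The other tested genes of peptide processing and breakdown were also named. Markers of granulosa, theca, smooth muscle, endothelium, leukocytes, neurons, glia and oocytes were summed. Theca sums were 13603 to 28060 over all arrays, endothelium 407 to 1001, leukocytes 249 to 818, glia 11.6 to 128, granulosa 16489 to 28283 and oocyte 14.1 to 171. Replicate numbers did not pair samples: of 45 same-numbered pairs of arrays from different groups, the deviations correlated at -0.30 to 0.12, and 1 exceeded 0.1. RefSeq sequences are of GRCr8. No array coordinates were used. Figures used Python 3.11.15 and matplotlib 3.10.9.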

Additional observations from a re-analysis of the deposited data

Results flagged for a closer look

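The effect of RU486 on 4 genes of the pathway list differed between proestrus and estrus by the test of the difference itself (limma, adjusted over all probe sets). They were 9.09% of the 44 tested, against 4.44% of all genes, and whether these shares differ was not tested. For Cpe the effect at estrus minus that at proestrus was -2.26 (adjusted p = 0.0315). For Pam it was -1.20 (adjusted p = 0.000934), for Mme -1.34 (adjusted p = 0.0431) and for Prkar2a -0.85 (adjusted p = 0.0158). The Mme call was lost with the replicate block (adjusted p = 0.0700), and the Cpe and Mme calls were lost when any of several single arrays was left out. Rupture and treatment cannot be told apart at estrus.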

How the results depend on the processing

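Values are log2 differences. With signals as deposited, Adcyap1 (1368892_at) gave -6.76 for control PoF minus control PeF, and 0.29 for IM PeF and -0.52 for IM UF against control, both with the sign turned, as for 1394908_at in RU UF (-0.14). Adcyap1r1 gave 0.037 between control times, -1.40 for RU PeF minus control PeF (adjusted p = 0.500), -2.42 for RU PeF minus IM PeF (0.0606) and -0.42 for the RU486 effect at estrus minus that at proestrus. Signs also turned for Pam (0.66), Pcsk7 (0.75), Furin (0.83), Gnas (0.78), Plcb1 (0.34), Prkar2a (0.97), Crtc2 (0.49), Grk2 (0.47) and Rgs2 (0.29) between control times and Grk6 (-0.0034) in RU UF. A constant at the median of all values, 16.4, gave -7.21 for Adcyap1 in controls and -8.11 under RU486.

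Array quality weights gave 0.31 for Adcyap1 in IM PeF, -1.21 (0.0408) in RU UF against control PoF, -1.56 (0.0198) in RU UF against IM UF, and -1.38 (0.00791) for Adcyap1r1 in RU UF. Without the 3 dimmest arrays the values were 0.41 for Adcyap1 in IM PeF, -0.093 for 1368892_at and -0.19 for 1394908_at in RU PeF minus IM PeF, and -1.28 (0.0421) for Adcyap1r1 in RU UF.

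Leaving out 1 array at a time, 1368892_at ranged from -0.26 to 0.29 for IM PeF, -0.34 to 0.63 for IM UF and -1.71 to -0.68 for RU UF against control, and -0.10 to 0.46 and -1.83 to -0.80 for RU against IM at proestrus and estrus. 1394908_at ranged from -0.34 to 0.60, -0.66 to 0.17 and, for RU PeF minus IM PeF, -0.19 to 0.76. Adcyap1r1 ranged from -1.61 to -0.61 for RU UF minus control PoF, -0.69 to 0.31 for RU UF minus RU PeF and -0.81 to 0.19 for RU UF minus IM UF. The cause of these changes was not tested.

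The replicate block left every member call on its side of the threshold, with RU PeF minus control PeF for Adcyap1r1 at -2.08 (adjusted p = 0.00521). The count of called probe sets moved by over 1.5 times in many settings. For RU PeF minus control PeF (1348) it was 3486 with weights, 2253 without the 3 dimmest arrays, 887 with median scaling, 297 with only the groups compared and 22 with deposited signals. For RU UF minus control PoF (1578) the same settings gave 3686, 3102, 788, 3122 and 151. For RU PeF minus IM PeF (949) weights, median scaling and deposited signals gave 3861, 526 and 41, for RU UF minus IM UF (1261) 2642, 555 and 32 (1897 with only the groups compared), and for the RU486 effect between times (730) 2446, 333 and 82 (1647 without the 3 dimmest arrays). Weights gave 2349 against 0 for IM PeF, 171 against 6 for IM UF and 548 against 0 for the indomethacin effect between times, and deposited signals gave 609 against 6050 and 1038 against 7053 for the indomethacin and RU486 time comparisons (weights 10150 for the former). Leaving out 1 array gave 623 to 1633, 865 to 1031, 486 to 1166, 660 to 923 and 364 to 926 for the RU486 comparisons in the order above, 0 to 27 for IM PeF and 1 to 17 for IM UF. Pathway genes called with deposited signals and with weights were 0 and 7 for RU PeF minus control PeF (3), 1 and 14 for RU UF minus control PoF (6), 0 and 8 for RU PeF minus IM PeF (3), 1 and 13 for RU UF minus IM UF (8), and 0 and 7 for the RU486 effect between times (4). Between control times (19) either other scaling gave 12, and deposited signals gave 4 under indomethacin (21) and 3 under RU486 (24). The share of calls that were higher went from 48.6% to 36.0% with median scaling and 6.62% with deposited signals for RU UF minus control PoF, from 37.8% to 14.6% with deposited signals for RU PeF minus IM PeF, and from 54.2% to 19.2% with median scaling for the RU486 effect between times. Levels of Vipr1, Vipr2 and estrus Adcyap1 are limited by the background.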
